A study of Mus musculus with 4 samples.

Results

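The C-type lectin pattern receptors are surface proteins of myeloid cells that bind sugars and lipids of fungi, mycobacteria and dying cells. The 10 receptor genes described here, Clec4n, Clec4e, Clec4d, Clec7a, Clec5a, Clec4a1, Clec4a2, Clec4a3, Clec4b2 and Clec10a, were taken by symbol from a table of 18021 genes, and all 10 were found. The RNA came from dendritic cells, which present antigen to T cells, grown from C57BL/6 mouse marrow for 5 days in GM-CSF and IL4. All cells were matured with lipopolysaccharide (LPS) at 100 ng/ml for 24 h and then transfected, so no library shows the receptors before LPS or without an siRNA. One siRNA, si-Lnc-Dpf3, carries the name of lnc-Dpf3, a long non-coding RNA, and the other, si-NC, is the one it was set against. Under each siRNA, one culture stayed in medium alone (Med) and one received CCR7L for 12 h, which is the pair of CCR7 ligands, CCL19 together with CCL21. The 4 groups are si-NC/Med, si-NC/CCR7L, si-Lnc-Dpf3/Med and si-Lnc-Dpf3/CCR7L, with 1 library each and therefore no replicate of any group. lnc-Dpf3 itself was not analysed here.

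Dectin-1 (Clec7a) recognises beta-glucans of fungal walls, Dectin-2 (Clec4n) recognises mannans, and Mincle (Clec4e) with its partner MCL (Clec4d) recognises mycobacterial glycolipids. Dectin-1 carries its own activating motif, whereas Dectin-2, Mincle and MCL signal through the adaptor FcR gamma (Fcer1g), and both routes lead to the kinase Syk and the adaptor Card9. DCIR (Clec4a2) carries an inhibitory motif, and receptors of this family thereby both start and restrain inflammatory gene expression in dendritic cells.

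Of the 10 genes, 7 lie in one block of chromosome 6, the span chr6:122921848-123289871 of 368 kb (GRCm38.p6, RefSeq), which holds 9 protein-coding genes, all named Clec4. In map order these are Clec4a1, Clec4a3, Clec4a4, Clec4b1, Clec4a2, Clec4b2, Clec4n, Clec4d and Clec4e. Clec5a (chr6:40574898-40585805) and Clec7a (chr6:129461591-129472785) lie elsewhere on that chromosome, and Clec10a is on chromosome 11 (chr11:70166623-70170836). RefSeq supplied a promoter for 8 of the 10 genes, and Clec4n and Clec10a are named only. The 250 bases before the start are printed for 4 genes of the block with opposite directions in the siRNA comparison. Clec4a1 fell and Clec4a2 rose with si-Lnc-Dpf3, while Clec4e was lower and Clec4b2 higher in both si-Lnc-Dpf3 libraries without passing the test. Each is read 5′ to 3′ on the gene's own strand of GRCm38.p6, with capitals marking matches to the motifs described after them. The windows are chr6:122921598-122921847 (plus strand), chr6:123289872-123290121 (minus strand), chr6:123122440-123122689 (plus strand) and chr6:123172773-123173022 (plus strand), in the order printed. The Clec4b2 window precedes a transcript start that lies inside the gene's RefSeq span (chr6:123172868-123204671).
Clec4a1: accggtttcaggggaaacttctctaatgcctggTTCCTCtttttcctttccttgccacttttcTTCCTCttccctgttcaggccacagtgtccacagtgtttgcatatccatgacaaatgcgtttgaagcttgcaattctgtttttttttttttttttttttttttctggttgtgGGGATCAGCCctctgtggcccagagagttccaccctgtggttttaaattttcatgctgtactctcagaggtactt
Clec4e: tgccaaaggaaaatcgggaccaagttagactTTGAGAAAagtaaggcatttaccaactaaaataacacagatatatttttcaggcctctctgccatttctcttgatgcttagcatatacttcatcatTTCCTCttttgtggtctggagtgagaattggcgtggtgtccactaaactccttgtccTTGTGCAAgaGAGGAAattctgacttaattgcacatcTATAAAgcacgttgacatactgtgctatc
Clec4a2: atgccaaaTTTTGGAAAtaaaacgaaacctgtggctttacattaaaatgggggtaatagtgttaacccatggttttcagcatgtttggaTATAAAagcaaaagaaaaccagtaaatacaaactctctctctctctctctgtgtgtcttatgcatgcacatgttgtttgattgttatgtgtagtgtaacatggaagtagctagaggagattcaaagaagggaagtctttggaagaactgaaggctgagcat
Clec4b2: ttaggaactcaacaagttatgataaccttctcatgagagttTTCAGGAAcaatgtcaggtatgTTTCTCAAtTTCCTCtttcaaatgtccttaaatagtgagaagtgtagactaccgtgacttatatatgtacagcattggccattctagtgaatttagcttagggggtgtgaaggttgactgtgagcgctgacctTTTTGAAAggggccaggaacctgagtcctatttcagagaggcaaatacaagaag

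Motifs were searched as letters on both strands in 10 windows of the 8 genes, since Clec4a3 and Clec7a have 2 starts each. GAGGAA, a core bound by the myeloid factor PU.1 and other ETS factors, stood in 8 of the 10 windows and in 23.3% of all promoters in the table. The windows without it were that of Clec4a2 and one of Clec4a3. By gene GAGGAA stood in 7 of 8, since the overlapping windows of Clec7a share 1 match. TTNNGNAA, a relaxed C/EBP site, stood in 5 of 10 (Clec4a2, Clec4b2, Clec4d, Clec4e and Clec5a) against 36.8% of all promoters. TATAAA stood in 3 of 10 (Clec4a2, Clec4e and Clec5a) against 12.4%, and in Clec4e it begins 29 bases before the start. GGGA and CC separated by any 4 bases, an NF-kappaB pattern, matched in Clec4a1 alone, against 17.6% of all promoters. TGANTCA (AP-1, in 6.7% of all promoters) and GAAA repeated after any 2 bases (an interferon response element, 3.0%) had no match in these windows. Matches of the same motif can overlap, as the pair of C/EBP matches near the 5′ end of Clec4a2 does. A match is a run of letters and was not tested as a binding site.

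All 10 receptors were expressed in every library, and their levels spanned more than 100-fold. Values are FPKM, fragments per length of transcript and per size of library, a level that can be set side by side between genes. Clec4n, which encodes Dectin-2, was the most abundant, at 607 FPKM in si-NC/Med, 611 in si-NC/CCR7L, 554 in si-Lnc-Dpf3/Med and 584 in si-Lnc-Dpf3/CCR7L. Its mean of 589 FPKM ranked 110 among the 18021 genes. Clec4e, the Mincle gene, followed at a mean level of 384 FPKM (rank 189) and Clec4d at 156 FPKM (rank 499). Clec7a had a mean level of 104 FPKM, Clec5a 52.2, Clec4a2 48.8, Clec4a1 31.7, Clec4a3 16.9, Clec4b2 10.4 and Clec10a 5.18 FPKM. Of the 9 neighbouring pairs in this order, 7 had ranges over the 4 libraries that did not overlap. The exceptions were Clec5a with Clec4a2 and Clec4a3 with Clec4b2, each in this order in 3 of 4 libraries. Clec4n, Clec4e and Clec4d together held 81.4% of the summed FPKM of the 10 receptors in si-NC/Med, 81.6% in si-NC/CCR7L, 79.1% in si-Lnc-Dpf3/Med and 80.6% in si-Lnc-Dpf3/CCR7L. The sum itself was 1468 FPKM in si-NC/Med, 1473 in si-NC/CCR7L, 1313 in si-Lnc-Dpf3/Med and 1336 in si-Lnc-Dpf3/CCR7L, so both si-Lnc-Dpf3 libraries lay below both si-NC libraries.

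**Figure D1:**
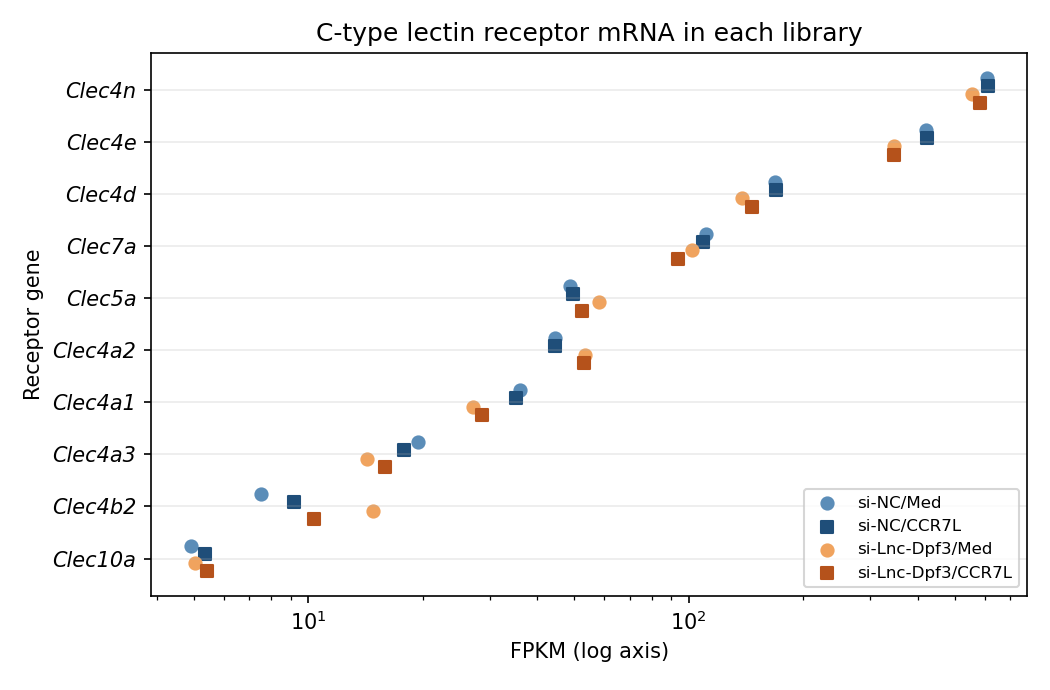
FPKM (log axis) of each of the 10 C-type lectin receptors, with one point for each of the 4 single libraries. The points of each gene lie close together beside the spread between genes, from about 5 FPKM for Clec10a to 611 FPKM for Clec4n.

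CCR7L was followed by no called change in any of the 10 receptors. Effects were estimated with limma as the average log2 change of log2(FPKM + 1) over both levels of the other factor, and a gene was called at an adjusted p below 0.05 over 11041 genes, those whose mean reached 1 FPKM. All 10 receptors passed that filter. With no replicates, these p-values set an effect against the interaction of the factors and a spread borrowed across genes, not against separate cultures. For the CCR7L effect, 0 of 10 receptors rose and 0 fell in limma, and 0 had an unadjusted p below 0.05; of all genes tested, 2.93% were called higher and 3.11% lower. The receptors' log2 changes ran from -0.11 (Clec4b2) to 0.10 (Clec10a), with a median of 0.01 against -0.02 for all genes tested. The difference closest to 0 was that of Clec4e, at 421 FPKM in si-NC/Med, 422 in si-NC/CCR7L, 346 in si-Lnc-Dpf3/Med and 345.7 in si-Lnc-Dpf3/CCR7L. Clec4e was lower in both si-Lnc-Dpf3 libraries and nearly equal between Med and CCR7L under each siRNA. Both CCR7L libraries lay above both Med libraries for 1 receptor, Clec10a, and below them for none; over all genes tested these shares were 16.2% and 21.5%.

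Clec10a, which encodes the galactose-type lectin MGL1 (CD301a), was the least abundant of the receptors. It measured 4.91 FPKM in si-NC/Med, 5.36 in si-NC/CCR7L, 5.03 in si-Lnc-Dpf3/Med and 5.41 in si-Lnc-Dpf3/CCR7L. The CCR7L libraries were the higher ones by a narrow margin, and the limma estimate on the log2 scale was 0.10 ± 0.09 (adjusted p = 0.687). About 147 to 161 reads stood behind each Clec10a value, an estimate, and 16.2% of its 50-base windows also occur in Mgl2, a related gene at 48.3 to 53.9 FPKM, so its level is uncertain.

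With si-Lnc-Dpf3, 1 receptor rose, 1 fell, and most of the others were split between the siRNAs without passing the test. Clec4a2 rose and Clec4a1 fell in limma's average siRNA effect, against 2.33% of all genes tested called higher and 2.04% called lower. Both si-Lnc-Dpf3 libraries lay below both si-NC libraries for 6 receptors (Clec4n, Clec4e, Clec4d, Clec7a, Clec4a1 and Clec4a3) and above them for 3 (Clec4a2, Clec4b2 and Clec5a). Over all genes tested those shares were 15.7% and 24.8%. Under scaling to equal totals 5 receptors passed the test, and under median-ratio scaling 6 did, Clec4a2 and Clec4a1 in both. Over all genes these scalings called 850 and 859 of 11041. An unadjusted p below 0.05 was reached by 8 of the 10 receptors and by 1927 of the 11041 genes. The median log2 change of the receptors was -0.13 against 0.01 for all genes tested, and the receptors ranged from -0.34 to 0.53. In these bulk samples, fewer cells that carry a receptor and less of its RNA per cell cannot be told apart. In the same libraries 9 of 18 neutrophil markers rose with si-Lnc-Dpf3 and 0 fell. The summed FPKM of all 19 listed neutrophil markers was 9410 and 9781 with si-NC and 13848 and 13984 with si-Lnc-Dpf3. Most of it was S100a8 (3020 to 5022 FPKM) and S100a9 (3670 to 5721 FPKM), which did not pass (limma adjusted p = 0.0541 and 0.0989). The part of these markers in the receptor values was not tested.

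**Figure D2:**
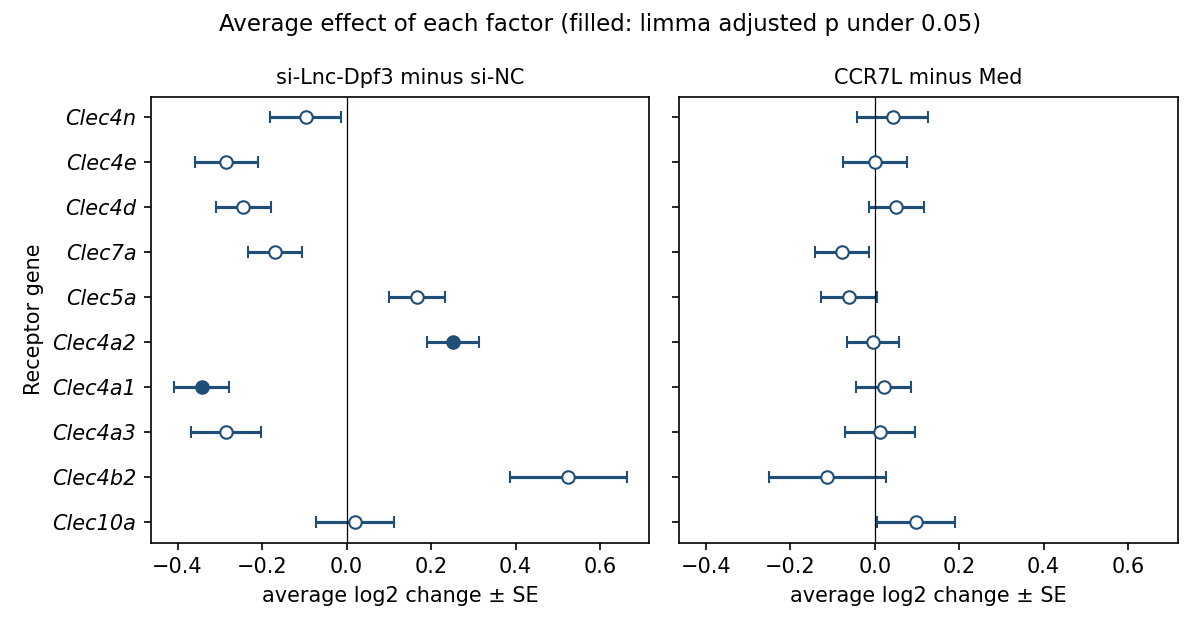
Average log2 change of each receptor with si-Lnc-Dpf3 over si-NC and with CCR7L over Med, with bars of 1 limma SE; filled points mark an adjusted p below 0.05. Clec4a2 (0.25) and Clec4a1 (-0.34) are the filled points, both in the siRNA effect, and the CCR7L effects lie between -0.11 and 0.10.

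Clec4n, Clec4e and Clec4d, the genes of Dectin-2, Mincle and MCL, were each lower in both si-Lnc-Dpf3 libraries, and none of these 3 passed the test. Clec4e, whose product binds trehalose dimycolate, had si-NC values of 421 and 422 FPKM and si-Lnc-Dpf3 values of 346 and 345.7 FPKM, at a limma estimate of -0.28 ± 0.08 on the log2 scale (adjusted p = 0.063). Clec4d, whose product MCL pairs with Mincle, was 168 FPKM in si-NC/Med, 170 in si-NC/CCR7L, 138 in si-Lnc-Dpf3/Med and 147 in si-Lnc-Dpf3/CCR7L. The groups of both genes stood apart, and the log2 change of Clec4d was -0.24 ± 0.06 (limma adjusted p = 0.0643). The FPKM ratio of Clec4e to Clec4d was 2.50 in si-NC/Med, 2.49 in si-NC/CCR7L, 2.51 in si-Lnc-Dpf3/Med and 2.35 in si-Lnc-Dpf3/CCR7L, and among the 10 receptors these 2 genes had the most similar profiles over the 4 libraries. Clec4n was nearer to equal between the siRNAs, with a log2 change of -0.10 ± 0.08 (limma adjusted p = 0.613), although its lowest si-NC value of 607 FPKM still exceeded its highest si-Lnc-Dpf3 value of 584. The FPKM ratio of Clec4n to Clec4d was accordingly 3.61 and 3.60 with si-NC and 4.02 and 3.97 with si-Lnc-Dpf3.

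Clec7a, the Dectin-1 gene, measured 111 FPKM in si-NC/Med, 109 in si-NC/CCR7L, 102 in si-Lnc-Dpf3/Med and 93.6 in si-Lnc-Dpf3/CCR7L. Both si-NC libraries were the higher ones, and the log2 change of -0.17 ± 0.06 did not pass (limma adjusted p = 0.183). Clec5a encodes MDL-1, an activating receptor that couples to the adaptor DAP12 (Tyrobp). It ran the other way, at 48.7 FPKM in si-NC/Med, 49.5 in si-NC/CCR7L, 58.1 in si-Lnc-Dpf3/Med and 52.5 in si-Lnc-Dpf3/CCR7L, with a log2 change of 0.17 ± 0.07 (limma adjusted p = 0.216). The si-Lnc-Dpf3/Med library was the high one, and the gap in the presence of CCR7L was narrow. For Clec10a the siRNA groups overlapped, with a log2 change of 0.02 ± 0.09 (limma adjusted p = 0.946).

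The DCIR genes, close relatives within the block, went in opposite directions. Clec4a2, the gene of the inhibitory receptor DCIR, measured 44.4 FPKM in si-NC/Med, 44.6 in si-NC/CCR7L, 53.4 in si-Lnc-Dpf3/Med and 53.0 in si-Lnc-Dpf3/CCR7L. Libraries with the same siRNA were nearly equal, and Clec4a2 rose, with a limma log2 change of 0.25 ± 0.06 (SE, adjusted p = 0.046). Clec4a1 (Dcir4) measured 36.0 FPKM in si-NC/Med, 35.2 in si-NC/CCR7L, 27.1 in si-Lnc-Dpf3/Med and 28.6 in si-Lnc-Dpf3/CCR7L. The si-Lnc-Dpf3 libraries were the low ones, and Clec4a1 fell, with a limma log2 change of -0.34 ± 0.07 (adjusted p = 0.018). Clec4a3 (Dcir3), next to Clec4a1 on the chromosome, measured 19.5 FPKM in si-NC/Med, 17.8 in si-NC/CCR7L, 14.3 in si-Lnc-Dpf3/Med and 15.9 in si-Lnc-Dpf3/CCR7L. Its groups did not overlap, but its log2 change of -0.29 ± 0.08 did not pass (limma adjusted p = 0.0884). The calls of Clec4a1 and Clec4a2 were lost in limma without the mean-variance trend (adjusted p = 0.0827 and 0.148), with the siRNA as the only factor (0.213 and 0.255), without the filter on low genes (0.463 for both) and when any 1 library was left out (0.337 to 0.988 and 0.339 to 0.988). For Clec4a2, 7.62% of the 50-base windows also occur in transcripts of other genes, most often Clec4a4, which measured 0.85 to 1.35 FPKM. Clec4a1 and Clec4a3 had no such window.

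Clec4b2, listed in RefSeq with the synonym mDCAR1, differed most between libraries. It measured 7.52 FPKM in si-NC/Med, 9.15 in si-NC/CCR7L, 14.8 in si-Lnc-Dpf3/Med and 10.3 in si-Lnc-Dpf3/CCR7L. One library, si-Lnc-Dpf3/Med, stood high, and the remaining 3 lay within 7.52 to 10.3 FPKM. Without CCR7L the FPKM ratio of si-Lnc-Dpf3 to si-NC was 1.97, with an approximate 95% counting interval of 1.64 to 2.36 from about 178 and 349 reads. With CCR7L the ratio was 1.13, interval 0.941 to 1.36, which includes 1. Such intervals rest on estimated reads and cover counting error only. Averaged over both stimulations, the log2 change was 0.53 ± 0.14 and did not pass (limma adjusted p = 0.062). Leaving out si-Lnc-Dpf3/Med brought it to 0.29, with the siRNA as the only factor. The neighbour Clec4b1 was listed at 0.33 to 0.75 FPKM, below the filter.

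Pair by pair, no receptor reached a 2-fold difference on the log2(FPKM + 1) scale between any 2 libraries compared. Of all genes tested, 0.0906% did so for si-Lnc-Dpf3 over si-NC in Med and 0.0725% in CCR7L, and 0.453% for CCR7L over Med with si-NC and 0.48% with si-Lnc-Dpf3. Clec4a1 had siRNA log2 ratios of -0.40 without and -0.29 with CCR7L, and Clec4e had -0.28 and -0.29. Clec4a2 was alike in both, at 0.26 and 0.24. Clec4a3 had -0.42 and -0.15, and Clec4b2 0.89 and 0.16, so these 2 genes had the wider gaps between stimulations. None of these differences between single libraries was tested.

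**Figure D3:**
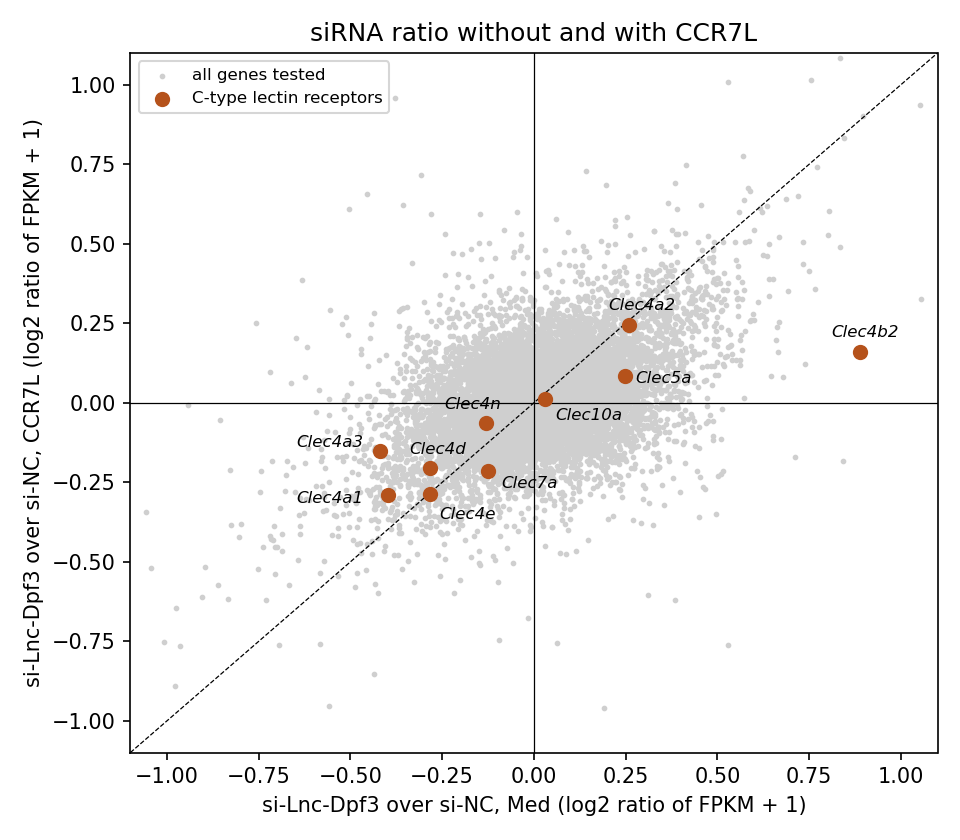
Log2 ratio of si-Lnc-Dpf3 over si-NC in Med (x axis) and in CCR7L (y axis) on the log2(FPKM + 1) scale, receptors in orange and all genes tested in grey, each point being a pair of single-library ratios; 9 genes beyond ±1.1 are not drawn. Clec4a2 and Clec4e lie near the dashed line of equal ratios, and Clec4b2 lies far to the right of it at 0.89 and 0.16.

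Other C-type lectin receptors also went both ways with the siRNA. Of 37 listed, 33 were in the table and 16 passed the filter. Of these 16, 2 rose and 3 fell, against 2.33% of all genes tested called higher and 2.04% lower. Their median log2 change was -0.06 against 0.01 for all genes tested. Clec12a, an inhibitory receptor for uric acid crystals, measured 42.7 FPKM in si-NC/Med, 42.5 in si-NC/CCR7L, 54.2 in si-Lnc-Dpf3/Med and 52.8 in si-Lnc-Dpf3/CCR7L. Its si-Lnc-Dpf3 libraries were the high ones, as those of Clec4a2 were, and Clec12a rose, with a limma log2 change of 0.32 ± 0.06 (adjusted p = 0.018). Cd93 rose as well, by 0.38 ± 0.09 (limma adjusted p = 0.0399). Clec2d, a ligand of NK cell receptors, fell by a log2 change of -0.42 ± 0.07 (limma adjusted p = 0.0106), from 30.6 and 34.8 FPKM with si-NC to 23.9 and 24.3 with si-Lnc-Dpf3. Klrk1 (the NKG2D gene) fell by -0.39 ± 0.08 (limma adjusted p = 0.0304) and the activation marker Cd69 by -0.26 ± 0.06 (0.0446). With CCR7L, Cd69 was the member of the 16 that passed, and it fell by a log2 change of -0.25 ± 0.06 (limma adjusted p = 0.0441). For CCR7L, 2.93% of all genes tested were called higher and 3.11% lower.

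**Figure D4:**
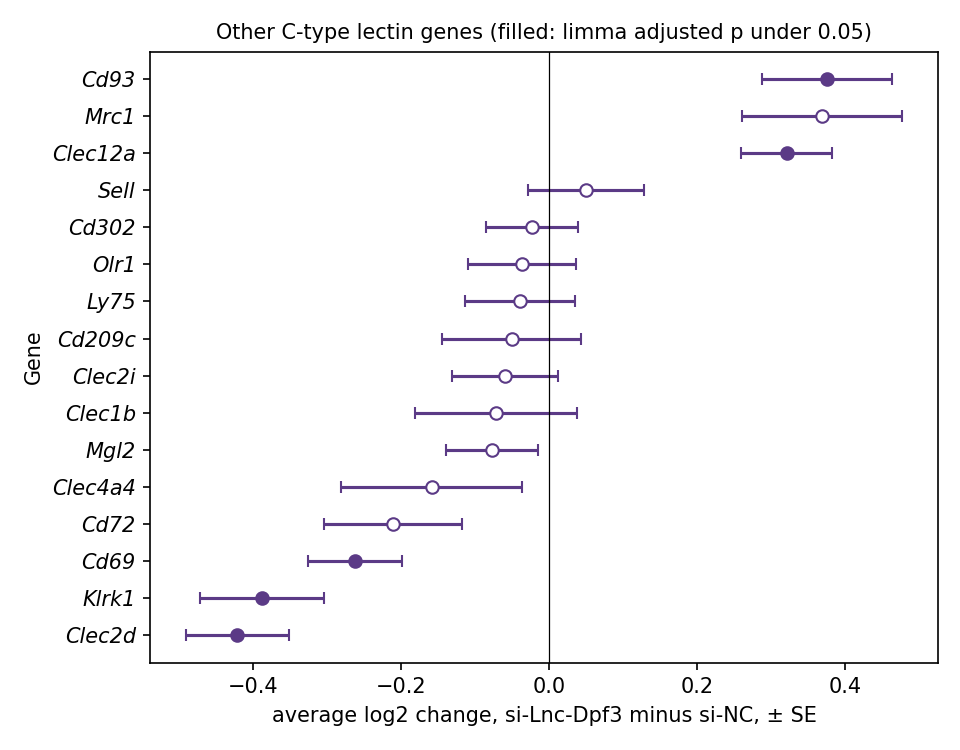
Average log2 change with si-Lnc-Dpf3 over si-NC of the 16 tested C-type lectin receptors outside the 10, with bars of the limma SE. Filled points mark receptors that passed the limma test for the siRNA. The filled points are Clec12a (0.32) and Cd93 (0.38), which rose, and Clec2d (-0.42), Klrk1 (-0.39) and Cd69 (-0.26), which fell.

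None of the receptors' signalling partners was called for the siRNA: 0 of 31 rose and 0 fell in limma. Of all genes tested, 2.33% were called higher and 2.04% lower. An unadjusted p below 0.05 was reached by 3 partners, and the median log2 change of the 31 was 0.01. With columns scaled to equal totals Plcg2 rose, and with median-ratio scaling Src fell. For the siRNA these scalings called 850 and 859 of 11041 genes. Fcer1g, the adaptor of Dectin-2, Mincle and MCL, measured 876 FPKM in si-NC/Med, 845 in si-NC/CCR7L, 684 in si-Lnc-Dpf3/Med and 833 in si-Lnc-Dpf3/CCR7L, so si-Lnc-Dpf3/Med was the low library. Tyrobp, the adaptor of MDL-1, lay between 347 and 375 FPKM. Syk lay between 124 and 146 FPKM and Card9 between 33.8 and 38.1 FPKM; these 4 genes were named for their role, after their values had been seen. With CCR7L, 1 of 31 fell, against 2.93% of all genes tested called higher and 3.11% lower. It was Cblb, a ubiquitin ligase that restrains Dectin signalling in mice, with a log2 change of -0.32 ± 0.07 (limma adjusted p = 0.0194). Scaling the columns to equal totals put 4 partners past the test for CCR7L, all of them lower, Syk among them. That scaling called 900 of 11041 genes for CCR7L, 38.8% of them higher. With median-ratio scaling, which called 982 genes for CCR7L, 56.9% of them higher, Cblb fell, Vav2 rose and Syk was not called.

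Cytokine and response genes induced through Dectin-1, Dectin-2 or Mincle are also LPS targets. Of 14, 0 rose and 3 fell with si-Lnc-Dpf3, against 2.33% of all genes tested called higher and 2.04% lower. Their median log2 change was -0.20 against 0.01 for all genes tested. Il6 measured 95.2 FPKM in si-NC/Med, 78.4 in si-NC/CCR7L, 70.5 in si-Lnc-Dpf3/Med and 62.5 in si-Lnc-Dpf3/CCR7L, and fell by a log2 change of -0.38 ± 0.06 (limma adjusted p = 0.0108). Il12b fell by -0.33 ± 0.06 (limma adjusted p = 0.0193) and the cyclooxygenase gene Ptgs2 by -0.29 ± 0.07 (0.0354). With CCR7L, 0 of the 14 rose and 0 fell in limma, against 2.93% of all genes tested called higher and 3.11% lower. An unadjusted limma p below 0.05 for CCR7L was reached by 2 of the 14. With columns scaled to equal totals Il6 and Il12b fell with CCR7L, whereas median-ratio scaling gave 0 calls among the 14. For CCR7L these scalings called 900 and 982 of 11041 genes. Scaling by equal totals or median ratios put 5 and 6 of the 14 past the test for the siRNA, all lower, and the 3 named genes were among them. Over all genes the same scalings called 850 and 859 of 11041 for the siRNA.

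Among pattern receptors of other families, 29 of 30 passed the filter, and 0 rose and 4 fell with si-Lnc-Dpf3. Of all genes tested, 2.33% were called higher and 2.04% lower. The median log2 change was -0.09 against 0.01 for all genes tested. The 4 were Tlr3 (log2 change -0.43 ± 0.09, limma adjusted p = 0.0327), the scavenger receptor genes Cd36 (-0.32 ± 0.07, 0.032) and Msr1 (-0.31 ± 0.07, 0.0291), and the Fc receptor gene Fcgr1 (-0.29 ± 0.06, 0.0327). Median-ratio scaling brought the count to 8, all lower, and the count over all genes to 859 of 11041. With CCR7L, Tlr9 and Tlr11 rose (log2 change 0.42 ± 0.08 and 0.62 ± 0.11, limma adjusted p = 0.00913 and 0.00658), and 0 fell. The shares of all genes tested called for CCR7L were 2.93% higher and 3.11% lower. Tlr11 stayed at or below 1.48 FPKM.

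The cells carried dendritic cell transcripts, with Ccr7 at 615 to 808 FPKM, the actin bundler gene Fscn1 at 596 to 956 and the class II gene H2-Ab1 at 206 to 423. Lower in that list were Itgax (25 to 33 FPKM), Zbtb46 (10.4 to 13.9) and Flt3 (11.9 to 12.6). Xcr1 and Clec9a of cross-presenting dendritic cells stayed below 0.5 FPKM. The listed macrophage marker Lyz2 stood at 1105 to 1248 FPKM. Ly6c2, at 2178 to 2401 FPKM, was most of the monocyte sum given below. Markers of other myeloid cells moved with the siRNA, for which 2.33% of all genes tested were called higher and 2.04% lower. The neutrophil markers that rose were led by Ltf (log2 change 0.99 ± 0.06, limma adjusted p = 6.38e-05), Elane (0.89 ± 0.08, 0.000458) and Ngp (0.84 ± 0.10, 0.00182), all granule protein genes, and Ngp was the most abundant of them at 687 to 1234 FPKM. Of 13 macrophage markers 0 rose and 2 fell (Adgre1 and Fcgr1; sum 1972 to 2067 FPKM over the 4 libraries), of 8 monocyte markers 0 rose and 1 fell (Ms4a4c; 2266 to 2516 FPKM), and of 12 dendritic cell markers 0 rose and 3 fell (Irf8, Cd83 and Itgax; 2005 to 2545 FPKM). Of 7 mast cell and basophil markers 1 fell (Fcer1a; 544 to 632 FPKM). Lymphocyte markers summed to 6.9 to 8.0 FPKM, led by Nkg7 and Cd79a, and erythroid and stromal markers to 4.4 to 6.5 FPKM, led by Hba-a1 and Pdgfrb, with none called of 2 tested in each list. In limma without the mean-variance trend, 8 neutrophil markers and Ms4a4c passed for the siRNA, and no member of the lists of other lectins, partners, cytokines or pattern receptors did. With the siRNA as the only factor, no member of any list passed. With CCR7L, no neutrophil, monocyte or mast cell marker was called, and of the dendritic cell markers 3 rose (Fscn1, H2-Ab1 and Dpp4) and 3 fell (Cd83, Zbtb46 and Kit). The shares of all genes tested called for CCR7L were 2.93% higher and 3.11% lower.

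Profiles most like those of the 3 receptors with the widest range were found by Euclidean distance between centred log2(FPKM + 1) values over the 4 libraries. Nearest to Clec4a1 was Itgax, which encodes the integrin CD11c of dendritic cells, at a distance of 0.03 and with 33.3 FPKM in si-NC/Med, 32.7 in si-NC/CCR7L, 24.6 in si-Lnc-Dpf3/Med and 26.6 in si-Lnc-Dpf3/CCR7L. Clic5 and Plpp3 came next, both at 0.03. Nearest to Clec4a3 were Ifng (0.02), Atp6v0d2 (0.03) and Fabp4 (0.03), of which Ifng lay near the filter at 0.78 to 1.39 FPKM. Nearest to Clec4b2 were Syne3 (0.16), Abca13 (0.16) and Kif15 (0.18), at far larger distances. Among the receptors, Clec4d and Clec4e were nearest at 0.08, and Clec4a2 was nearest to Clec5a at 0.13. With 4 libraries, many genes share such a profile, and these distances describe the libraries only.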

How the data were processed

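FPKM values of 18021 genes in 4 libraries, written with 2 decimals, were computed by the authors, per the file headers. Bowtie2, RSEM and GRCm38 are named in the submitters' processing notes, and their versions are not given in any source at hand. Abbreviations in the column names (nc or si, un or tr) assigned each column to its group, and no per-sample column was left unused. Symbols turned into dates were restored in 26 rows through Entrez numbers, of which 17892 matched RefSeq (GRCm38.p6).

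The deposited FPKM values were taken to log2 after adding a pseudocount of 1, which understates the change of low genes. The test was limma 3.58.1 (R 4.3.3) with a mean-variance trend, modelling siRNA plus stimulation, with 1 residual degree of freedom (the interaction), a median of 9.63 prior degrees of freedom and Benjamini-Hochberg adjustment over 11041 genes (minimum mean 1 FPKM). Python 3.11.15 with pandas 2.3.3, numpy 2.4.6 and scipy 1.17.1 did the rest, and the fit was tested on simulated data. RNA came from TRIzol extraction and the BGISEQ-500 platform. Library totals were 474610 to 500607 summed FPKM, with 10997 to 11075 genes at 1 FPKM or more and 675 genes listed at 0 throughout. Steps between low FPKM values put the depth at 20200000 to 20700000 reads, an estimate. Only 55.9% to 60.9% of 145 to 167 values per library lay within 0.1 of a whole read, so reads were not recovered and no count test was run. Sharing of sequence was counted over 50-base windows of GENCODE M21 transcripts.

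The receptors and gene lists were chosen with earlier results of these data known. The lists were other C-type lectins, signalling partners, response cytokines, other pattern receptors and markers of 7 cell types, and some genes stand in more than 1 list. Named genes were all receptors, list members past the test or, where none passed, the 2 most abundant, the 3 likest profiles, and genes of the Clec4 block. Some cell type markers were also named for their levels. Alternatives varied the pseudocount, filter, scaling, trend, model and libraries.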

Additional observations from a re-analysis of the deposited data

Results flagged for a closer look

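In 6 receptors the single-library CCR7L ratio had opposite signs under the 2 siRNAs. On the log2(FPKM + 1) scale, the CCR7L over Med ratio under si-Lnc-Dpf3 minus that under si-NC was -0.73 for Clec4b2, 0.27 for Clec4a3, -0.17 for Clec5a, 0.11 for Clec4a1, -0.02 for Clec4a2 and -0.01 for Clec4e. These differences were not tested, since each rests on 4 single libraries. For Clec4b2 the ratio was 0.25 with si-NC and -0.48 with si-Lnc-Dpf3. For Clec4a2 the ratios were 0.0044 with si-NC and -0.0109 with si-Lnc-Dpf3, and for Clec4e 0.0035 and -0.0016.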

How the results depend on the processing

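With 1 library per group, and depth known only as an estimate, precision is limited by the number of cultures, which these p-values do not measure. The 2 receptors past the limma test for the siRNA became 4 with a pseudocount of 0.1, 5 with columns scaled to equal totals and 6 with median-ratio scaling (Clec4e, Clec4d, Clec4a1, Clec4a2, Clec4a3 and Clec4b2). They became 0 without the filter on low genes, 0 without the trend, 0 with the siRNA as the only factor and 0 to 0 with any 1 library left out, where the siRNA is again the only factor. A pseudocount of 5 left 2, and a minimum mean of 5 FPKM gave 3. The cause was not tested. Over all genes the siRNA count of 482 became 850 with equal totals, 859 with median-ratio scaling, 77 without the trend, 1 with a single factor, 0 without the filter (1939 at an unadjusted p below 0.05) and 0 to 0 with 1 library left out (520 to 1445 unadjusted). The CCR7L count of 667 became 0 without the filter (2036 unadjusted), 238 with a single factor and 89 to 170 with 1 library left out. No receptor passed the limma test for CCR7L in any of these settings, and at most 1 had an unadjusted p below 0.05. Scaling moved the median log2 ratio of all genes by less than 0.1.

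Of 120 receptor changes with the siRNA recomputed, 93 kept direction and side of the threshold, 10 passed it anew, 14 were lost and 3 reversed, all 3 for Clec10a: -0.0015 with median-ratio scaling, and -0.0328 to 0.0731 with 1 library left out. For CCR7L 102 of 120 kept direction and 18 reversed, none past the test: with equal totals Clec4a1 -0.0189, Clec4a3 -0.0254 and Clec4e -0.0402, with median-ratio scaling Clec4a2 0.0191, and with 1 library left out the ranges were -0.18 to 0.22 (Clec4a1), -0.13 to 0.13 (Clec4a2), -0.20 to 0.22 (Clec4a3), -0.56 to 0.33 (Clec4b2), -0.0902 to 0.19 (Clec4d), -0.14 to 0.14 (Clec4e), -0.0226 to 0.11 (Clec4n), -0.19 to 0.0295 (Clec7a), -0.18 to 0.0648 (Clec5a). Of 160 recomputed single-library ratios, 154 moved by less than their counting interval reaches to either side on the log2 scale. No paired analysis was possible because each group has 1 library and the groups share fewer than 2 replicate numbers.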
